A study of Mus musculus with 196 samples.

Results

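The 9 genes described here act in the formation of meiotic DNA breaks and in the strand exchange that follows: Prdm9, Spo11, Mei1, Mei4, Meiob, Spata22, Dmc1, Rad51ap2 and Tex15. They were picked by name from the 25706 endogenous genes of the deposited expression table, and all 9 are in it. Sequencing covered the 3' ends of mRNA in PGCLCs (primordial germ cell-like cells, precursors derived in culture from mouse embryonic stem cells) and in germ cells of mouse embryos. All cultured lines descend from H18, a 129S1:C57BL/6 = 1:1 embryonic stem cell line with Prdm1-mVenus and Dppa3-ECFP reporters. PGCLCs sorted on reporters were expanded on m220 feeder cells for up to 9 days and sorted again at harvest.

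The cultures with the transgene came from OE_A2, which carries tetO/mCMV-Zglp1CDS-IRES-mCherry and EF1a-rtTA on piggyBac vectors, so that doxycycline (Dox) switches on the coding sequence of Zglp1, a GATA-like zinc finger factor of germ cells. OE_A2 was grown with Dox and retinoic acid (DoxRA), with Dox, with Dox and a compound the labels name only as BMS (BMSDox), with Dox and a compound named only as WIN in medium without serum (SerumMinusWINDox), with BMS or WIN but no Dox, in medium without serum, and as an untreated control. OESko_A11 carries the same transgenes and lacks Stra8 (Stra8-/-), and was grown with DoxRA or untreated. Clones Zko_E5 and Zko_G10 lack Zglp1 (Zglp1-/-) and were grown with BMP2 and RA together (B2RA), with BMP2, or untreated, while clones Sko_B6 and Sko_F6 lack Stra8 and were grown with B2RA or untreated. H18 itself was grown with B2RA, BMP2 or RA, and its untreated control was sampled at days 3.5 and 4 only. The embryonic libraries were E9.5 primordial germ cells with Dppa3-EGFP and E14.5 and E15.5 oocytes with Ddx4-RFP, all from ICR and C57BL/6 crosses. OE_A2 and OESko_A11 are 1 clone each, and no line without the transgene received Dox, so an effect of Dox itself and an effect of the transgene cannot be told apart.

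Meiotic recombination starts with programmed DNA breaks made by SPO11, a relative of archaeal topoisomerases, together with accessory proteins that include MEI1 and MEI4. PRDM9, a zinc finger histone methyltransferase, marks the places where mouse breaks are made. After resection, MEIOB and SPATA22 bind the exposed strands as a complex, and the recombinase DMC1 then pairs each strand with the homologous chromosome, with TEX15 needed in mouse spermatocytes for it to load. Rad51ap2 encodes a germline protein placed with the strand exchange genes. In females these steps take place in fetal oocytes soon after germ cells enter meiosis, and STRA8, a transcription factor whose gene responds to RA, is needed for normal entry into meiosis.

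Promoter windows of 250 bases before to 50 bases after the start site were matched for 6 of the 9 genes. They were searched on both strands for a STRA8 motif, CNCCTCAG, an E2F motif, GCGGGAA, an E-box, CACGTG, and a motif bound by GATA factors, AGATAA. The 3 windows with a match are shown, from RefSeq on GRCm38.p6, with the matches in capitals: Prdm9 at chr17:15564305-15564604 on the minus strand, Rad51ap2 at chr12:11455805-11456104 on the plus strand and Spata22 at chr11:73329491-73329790 on the plus strand.
Prdm9: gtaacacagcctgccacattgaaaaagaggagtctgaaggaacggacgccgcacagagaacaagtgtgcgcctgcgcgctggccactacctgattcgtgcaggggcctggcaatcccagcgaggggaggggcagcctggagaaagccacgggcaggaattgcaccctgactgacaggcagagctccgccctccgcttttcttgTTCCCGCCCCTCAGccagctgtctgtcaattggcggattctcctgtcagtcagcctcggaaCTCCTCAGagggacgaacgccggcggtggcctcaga
Rad51ap2: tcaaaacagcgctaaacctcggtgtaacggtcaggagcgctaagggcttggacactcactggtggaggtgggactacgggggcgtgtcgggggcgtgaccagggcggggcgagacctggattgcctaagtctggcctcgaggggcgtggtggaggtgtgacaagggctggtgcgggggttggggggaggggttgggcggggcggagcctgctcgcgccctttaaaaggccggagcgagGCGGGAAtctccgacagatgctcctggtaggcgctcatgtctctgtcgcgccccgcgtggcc
Spata22: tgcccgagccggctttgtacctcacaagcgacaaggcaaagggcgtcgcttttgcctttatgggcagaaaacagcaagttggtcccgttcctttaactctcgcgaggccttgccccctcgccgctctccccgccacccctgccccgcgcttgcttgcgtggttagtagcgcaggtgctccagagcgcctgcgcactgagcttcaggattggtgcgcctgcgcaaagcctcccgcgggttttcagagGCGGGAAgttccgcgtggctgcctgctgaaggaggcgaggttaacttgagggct
The first capitals of Prdm9 join an E2F motif on the opposite strand, at position -47 from the start site, to the STRA8 motif CCCCTCAG at -41, the motifs sharing 1 base. A second STRA8 motif, CTCCTCAG, lies at position 15. Rad51ap2 and Spata22 hold the E2F motif at -12 and -4. An E2F motif was in 4.6% of all 32851 windows of this length and a STRA8 motif in 7.94%. The Mei1 window lies 12480 bases from the start of the gene as annotated in GENCODE, so it does not stand at the start of the gene span given below. Prdm9 had another window, at chr17:15563282-15563581, whose start site lies 1023 bases from the GENCODE start, and that window held none of the motifs. No window of the 6 genes held CACGTG, which 7.15% of all windows hold, or AGATAA, which 11.2% hold.

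The gene levels are given in RPM, reads scaled to a total of 1000000 reads on endogenous genes. They came from 191 PGCLC libraries in 98 groups of line, treatment and day, nearly all of 2 libraries, and 3 embryonic libraries of 1 per stage. Libraries held 877040 to 5196593 reads, so that 1 read was worth 0.192 to 1.14 RPM. The 93 replicate pairs differed by more than sampling noise, with a chi-square of 1.66 to 66.4 for each degree of freedom, and the labels do not say that they came from separate cultures, so p-values measure the spread between these libraries. The mCherry row of the transgene averaged 3165 RPM with DoxRA and 1292 with Dox at day 9, against 284 in the OE_A2 control, and had 0 reads in the H18 libraries of that day. RNA 3' ends of Zglp1 and Stra8 were still read in their knockout clones (Stra8 averaged 555 RPM in Sko_B6 with B2RA), so those rows check nothing about the knockouts.

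Markers of other states moved with the treatments at day 9. The summed level of 4 pluripotent cell markers was 5.58 to 10.4 RPM with DoxRA and 141 to 146 with Dox, against 592 to 668 in the OE_A2 control. The summed level of later germ cell markers (4 of 5 listed were in the table) was 5167 to 6284 RPM with DoxRA and 4213 to 4756 with Dox, against 910 to 1449 in the control. The 12 feeder and stroma markers summed to 370 to 924 RPM with DoxRA and 384 to 438 with Dox, against 440 to 567 in the control. The 9 gonadal soma markers summed to 5.49 to 14.3 RPM with DoxRA and 12.1 to 20.6 with Dox, against 19 to 20.7 in the control, and reached 53.9 to 191 in H18 with B2RA. The knockouts differed from their parents as well. With B2RA, pluripotent cell markers summed to 370 to 525 RPM in the Zglp1 knockout clones and 291 to 432 in the Stra8 knockout clones, against 41.4 to 64.3 in H18. Later germ cell markers summed to 793 to 950 RPM in the Zglp1 knockout clones and 1260 to 1860 in the Stra8 knockout clones, against 4475 to 5041 in H18. With DoxRA, OESko_A11 had 202 to 215 RPM of pluripotent and 2075 to 2535 RPM of later germ cell markers, against 5.58 to 10.4 and 5167 to 6284 RPM in OE_A2. The part of these markers in the results for the 9 genes was not tested, and in such bulk libraries fewer cells of a type and less RNA per cell cannot be told apart.

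Of the 9 genes, 7 were under 10 RPM in most groups and high in a few, while Tex15 and Dmc1 were read more widely. Tex15 reached 10 RPM in 95 of the 98 groups, with a median group mean of 22.3 RPM, and Dmc1 in 64, with a median of 13.2 RPM. Spo11 reached it in 20 groups, Meiob in 19, Prdm9, Mei1 and Mei4 in 15 each, Rad51ap2 in 13 and Spata22 in 10. Spata22 had no read in 50 groups, Rad51ap2 in 47 and Mei1 in 36. The highest group mean was that of OE_A2 with DoxRA at day 9 for 7 of the genes, while Mei1 was highest with DoxRA at day 7 (58.5 RPM) and Mei4 in H18 with B2RA at day 9 (30.8 RPM).

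**Figure D1:**
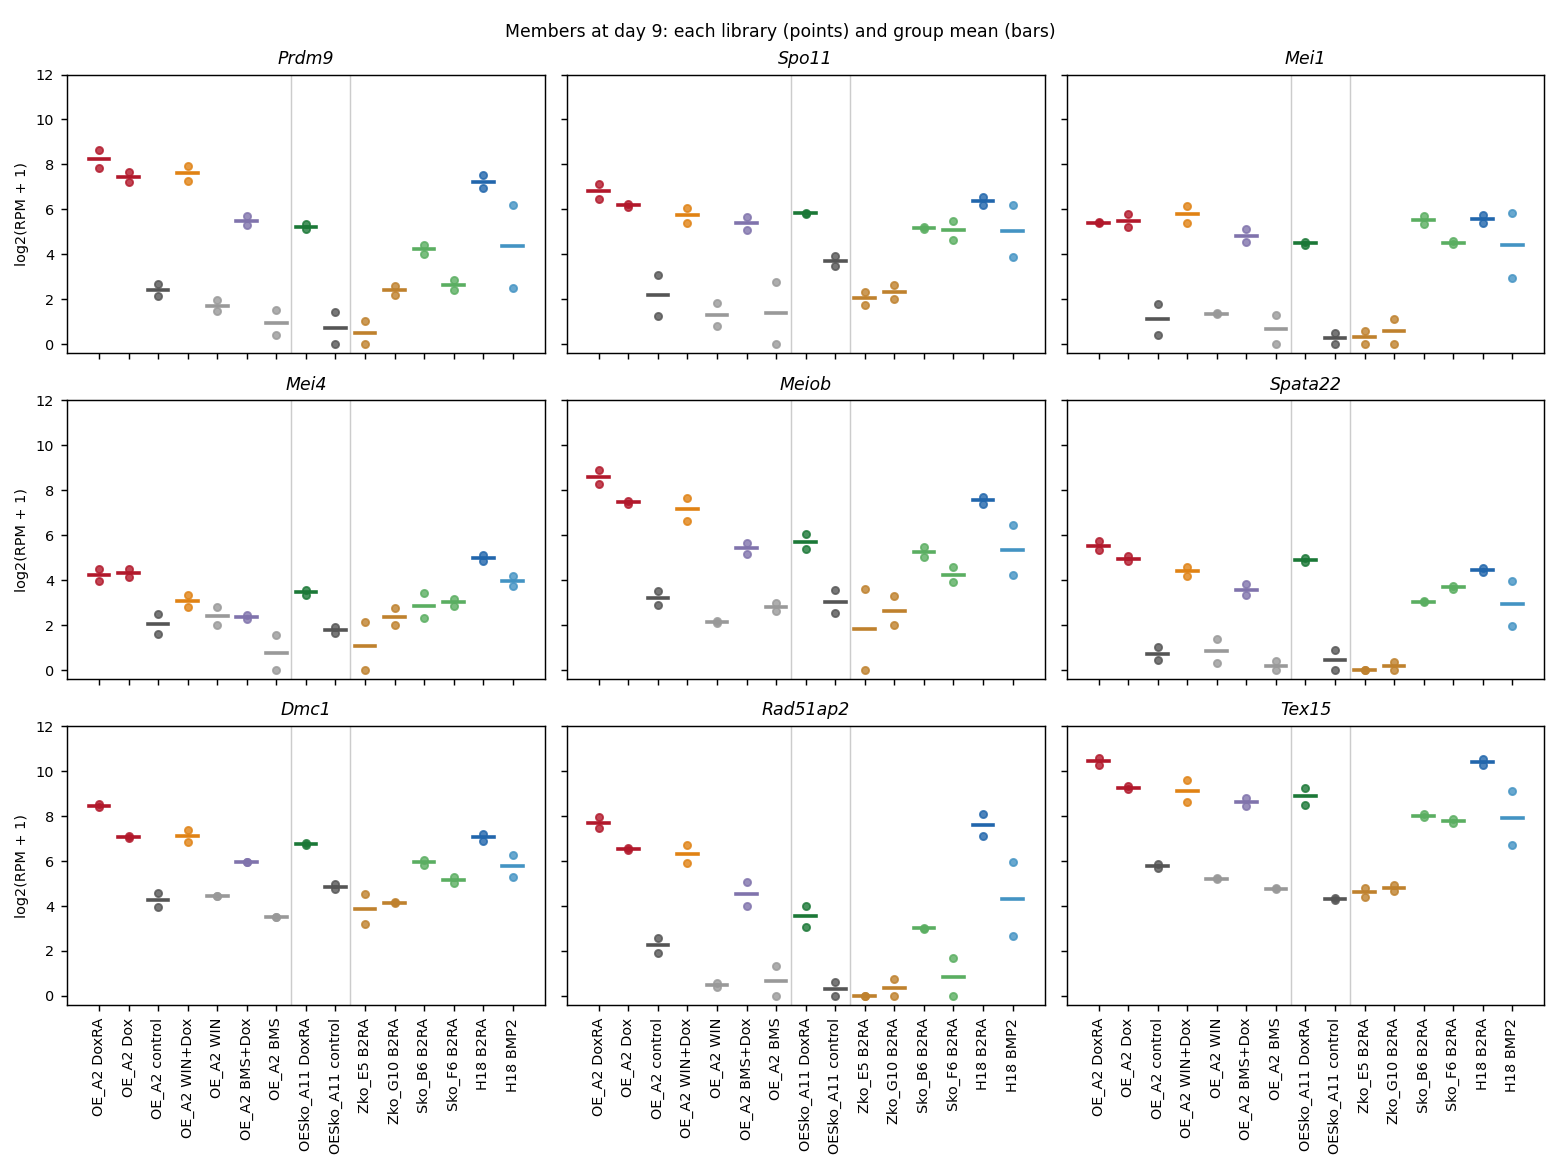
Levels of the 9 genes at day 9, on a log2(RPM + 1) axis, with 1 point per library and a bar at the group mean for 15 groups. Groups with Dox stand far above their partners without it in nearly every panel, as for Prdm9 (176 RPM with Dox and 4.42 in the OE_A2 control), and the Zglp1 knockout clones stay low with B2RA.

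Prdm9, which sets where breaks form, had 399.7 and 226 RPM with DoxRA and 202 and 149.9 RPM with Dox at day 9, against 3.44 and 5.39 RPM in the OE_A2 control. All 4 libraries with Dox stood above both controls, and the DoxRA libraries above the Dox ones. Here and below, the share of all genes whose libraries did not overlap was not counted, so such separation is a description only. On the log2(RPM + 1) scale, which understates the change of low genes, Prdm9 rose by 5.82 (SE 0.588) with DoxRA and by 5.04 (SE 0.588) with Dox, with limma adjusted p-values of 2.4e-15 and 2.4e-11. The gene lies on chromosome 17 from 15543079 to 15564354 of mm10, minus strand, and overlaps Gm18564 on the other strand. Whether reads were counted by strand is not given in the sources used here, so reads of such overlapping genes cannot be told apart.

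Among the break formation genes, Spo11 encodes the enzyme that cuts the DNA. It had 88.1 and 138 RPM with DoxRA and 68.8 and 74.6 RPM with Dox, against 1.38 and 7.545 RPM in the control. Treated and control libraries did not overlap, a description only. Spo11 rose by 4.63 (SE 0.613, limma adjusted p = 1.7e-10) with DoxRA and by 4.01 (adjusted p = 1.2e-07) with Dox. Mei1 had 41.0 and 42.25 RPM with DoxRA and 54.2 and 35.8 RPM with Dox, against 0.344 and 2.515 RPM in the control. The RA and no-RA libraries of Mei1 overlapped, and both sets stood above the control, with rises of 4.29 with DoxRA (limma adjusted p = 1.6e-13) and 4.37 with Dox (adjusted p = 1.6e-12). Mei4, whose protein forms complexes on chromosome axes before breaks are made, had 14.7 and 21.5 RPM with DoxRA and 21.5 and 16.7 RPM with Dox, against 2.065 and 4.67 RPM in the control. Its rises were smaller in size than those of the other 8 genes, at 2.17 with DoxRA (SE 0.524, limma adjusted p = 0.00019) and 2.26 with Dox (adjusted p = 0.00035), though a difference between genes was not tested. Spo11 lies on chromosome 2 (172977700 to 172993576, plus strand), Mei1 on chromosome 15 (82069996 to 82126814, plus strand) and Mei4 on chromosome 9 (81863670 to 82206007, plus strand), where Gm37837 and Gm15896 share its strand and span.

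The MEIOB and SPATA22 proteins work as a pair on exposed DNA strands, and their genes were high in the same libraries. Meiob had 313 and 478 RPM with DoxRA and 168.5 and 184 RPM with Dox, against 6.54 and 10.4 RPM in the control. Spata22 had 39.0 and 52.6 RPM with DoxRA and 32.2 and 27.6 RPM with Dox, against 1.03 and 0.359 RPM in the control. For both genes the libraries stood in the order DoxRA, Dox, control with no overlap, a description only. Meiob rose by 5.39 (SE 0.609, limma adjusted p = 3.9e-13) with DoxRA and by 4.255 with Dox (adjusted p = 1.7e-08), and Spata22 by 4.80 (SE 0.429, adjusted p = 5.4e-18) and 4.21 (adjusted p = 1e-13). Over the 98 groups the mean log2(RPM + 1) values of Meiob and Spata22 had a Pearson correlation of 0.903, a description only, since groups share lines, days and depth. Meiob lies on chromosome 17 (24804289 to 24839788, plus strand) and Spata22 on chromosome 11 (73329741 to 73346044, plus strand), where Gm49340 overlaps the 3' end of Spata22 on the same strand, so that reads counted for Spata22 could be shared with it.

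The strand exchange genes Dmc1 and Rad51ap2 had the following levels. Dmc1, the meiosis-specific recombinase, had 370.3 and 333 RPM with DoxRA and 139 and 128 RPM with Dox, against 14.46 and 23.0 RPM in the control. Rad51ap2 had 174 and 245 RPM with DoxRA and 93.7 and 88.0 RPM with Dox, against 2.75 and 5.03 RPM in the control. Again no library of one treatment overlapped those of another, though the share of all genes for which this held was not counted. Dmc1, which had a higher level in the control than Rad51ap2 did, rose by 4.19 (SE 0.451, limma adjusted p = 4.3e-14) with DoxRA and by 2.81 (adjusted p = 4.1e-07) with Dox, and Rad51ap2 by 5.45 (SE 0.475, adjusted p = 1.6e-18) and 4.27 (adjusted p = 4e-12). Tex15, which acts before DMC1 in its loading, had 1241 and 1530 RPM with DoxRA and 645 and 584 RPM with Dox, against 57.5 and 51.0 RPM in the control. Every DoxRA library of Tex15 stood above every Dox library, and these above the control, with rises of 4.64 (SE 0.367, limma adjusted p = 5.8e-21) with DoxRA and 3.48 (adjusted p = 4.6e-13) with Dox. Dmc1 lies on chromosome 15 (79561497 to 79605109, minus strand), where Gm27903 overlaps it on the same strand. Rad51ap2 lies on chromosome 12 (11456079 to 11462928, plus strand) and Tex15 on chromosome 8 (33516738 to 33585582, plus strand).

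With DoxRA, 9 of the 9 genes were called higher (limma adjusted p under 0.05 with a log2 change of 1 or more), where 25.6% of all genes tested were called higher. With Dox, 9 of 9 were called higher, against 13.4% of all genes tested. Testing a gene required 10 RPM or more in at least 2 of the compared libraries, and 6 of the 9 passed that filter through the treated libraries alone in each comparison, so they could pass only if they differed, and the counts are given as a description. The median change of the 9 genes was 4.64 with DoxRA and 4.21 with Dox, beside 0.11 and 0.06 over all genes tested.

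The effect of RA on top of Dox was read from DoxRA against Dox. Between DoxRA and Dox at day 9, 2 of the 9 genes were called higher, against 4.28% of all genes tested, and all 9 passed the filter, none through one side alone (that is, with no library of the other side at 10 RPM). Dmc1 rose by 1.39 (SE 0.451, limma adjusted p = 0.016) and Tex15 by 1.17 (SE 0.367, adjusted p = 0.013). Rad51ap2 and Meiob, with changes of 1.18 (95% interval 0.234 to 2.12) and 1.13 (95% interval -0.076 to 2.34), did not pass at adjusted p-values of 0.057 and 0.16. The changes of Mei1 (-0.08, 95% interval -1.02 to 0.863) and Mei4 (-0.08, 95% interval -1.12 to 0.956) lay near 0, and their libraries overlapped. The Dmc1 call ended without any 1 of the 4 libraries (adjusted p-values of 0.058 to 0.11), and the Tex15 call without replicate 2 of Dox (0.1) or of DoxRA (0.12). The number called was 4 with a pseudocount of 5 and 4 when only the groups compared were fitted. The mCherry row also differed, at 3165 RPM on average with DoxRA and 1292 RPM with Dox, and its part was not tested.

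Stra8 fell to 1.38 RPM on average with BMS, against 332 RPM in the OE_A2 control (-7.12, limma adjusted p = 4.1e-13), and of the 9 genes 0 were called lower or higher. Only Dmc1 and Tex15 passed the filter in that comparison, where 2.46% of all genes tested were called, and with limma 1 of the 2 had an unadjusted p under 0.05, while edgeR called 0. With no filter Rad51ap2 was called lower (-1.59, limma adjusted p = 0.028), at 0.75 RPM on average with BMS, against 3.89 RPM in the control. The median change of all 9 genes was -0.78, beside -0.13 over all genes tested. Tex15 had 26.6 and 26.0 RPM with BMS, against 57.5 and 51.0 RPM in the control, a change of -1.01 (SE 0.367, limma adjusted p = 0.11) with no overlap. Dmc1 had 10.5 and 10.4 RPM with BMS, against 14.46 and 23.0 RPM in the control, and did not pass either (-0.75, adjusted p = 0.41).

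Dox on top of BMS was still followed by higher levels of the 9 genes. Prdm9 had 38.05 and 51.1 RPM with BMSDox, against 1.876 and 0.325 RPM with BMS. Rad51ap2 had 15.1 and 32.2 RPM with BMSDox, against 1.5 and 0 RPM with BMS. Tex15 had 346 and 442 RPM with BMSDox, against 26.6 and 26.0 RPM with BMS. The BMSDox libraries stood above the BMS libraries for all 9 genes, Mei4 (4.52 and 3.79 RPM with BMSDox, against 0 and 1.95 RPM with BMS) included. The share of all genes for which this held was not counted, so it is a description only. Of the 7 genes that passed the filter, 5 of them through BMSDox alone, 7 were called higher, against 14.8% of all genes tested, with changes between 2.43 for Dmc1 (limma adjusted p = 9.7e-06) and 4.53 for Prdm9 (adjusted p = 1.2e-09). Mei4 and Spata22 did not pass the filter. Stra8 averaged 33.7 RPM in the same BMSDox libraries.

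Between DoxRA and BMSDox, where both media held Dox, 8 of the 9 genes were called higher in DoxRA, against 17.5% of all genes tested, and 1 of the 9 passed the filter through DoxRA alone. Meiob was higher by 3.19 (SE 0.609, limma adjusted p = 6.6e-06), Rad51ap2 by 3.17 (SE 0.475, adjusted p = 2e-08) and Prdm9 by 2.74 (SE 0.588, adjusted p = 5.2e-05). Mei1 (41.0 and 42.25 RPM with DoxRA, against 22.2 and 34.1 RPM with BMSDox) did not pass the test, with a change of 0.58 (95% interval -0.364 to 1.52, adjusted p = 0.31). The Spo11 call (1.42, adjusted p = 0.045) ended with a pseudocount of 0.5 (adjusted p = 0.091), with no filter (0.056), with edgeR (0.066), and without DoxRA replicate 2 (0.24), BMSDox replicate 1 (0.23) or BMSDox replicate 2 (0.056). The mCherry row averaged 10340 RPM with BMSDox, above the 3165 RPM with DoxRA, and its part in the result was not tested.

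In medium without serum and with WIN, Dox was followed by higher levels of 8 of the 9 genes. Prdm9 had 153 and 246 RPM with SerumMinusWINDox, against 1.78 and 2.88 RPM with SerumMinusWIN. Rad51ap2 had 59.8 and 105 RPM with SerumMinusWINDox, against 0.508 and 0.320 RPM with SerumMinusWIN. Mei4 had 6.05 and 9.16 RPM with SerumMinusWINDox, against 3.05 and 6.07 RPM with SerumMinusWIN, so that its libraries overlapped and it did not pass the filter. The other 8 genes were called higher, against 13.3% of all genes tested, and 6 of them passed the filter through SerumMinusWINDox alone. Without Dox, 0 of the 2 genes tested (Dmc1 and Tex15) were called with SerumMinusWIN, where 0.0220% of all genes tested were called, the unadjusted p being under 0.05 for 0 of them with limma and edgeR calling 0. With no filter Rad51ap2 was called lower (-1.75, limma adjusted p = 0.026), at 0.414 RPM on average with SerumMinusWIN, against 3.89 RPM in the control. The median change of all 9 genes was -0.56, beside -0.01 over all genes tested. SerumMinus without WIN had 1 library per day and gave no test, and its day 9 levels of Prdm9 (4.14 RPM), Tex15 (34.35 RPM) and Rad51ap2 (1.655 RPM) stood beside 3.44 and 5.39, 57.5 and 51.0, and 2.75 and 5.03 RPM in the control.

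The difference between the Dox response with BMS and the Dox response in control medium passed the test for 0 of the 9 genes, where 1.64% of all genes tested were called. With limma 0 had an unadjusted p under 0.05, and edgeR called 0. The intervals were wide, as for Meiob (-1.65, 95% interval -3.36 to 0.056) and Prdm9 (-0.51, 95% interval -2.15 to 1.14). For the Dox response with SerumMinusWIN against that in control medium the count was also 0, beside 0.0100% of all genes tested that were called, with an unadjusted p under 0.05 for 2 genes with limma and 0 called by edgeR. Those genes were Rad51ap2 (1.56, 95% interval 0.230 to 2.90) and Mei4 (-1.60, 95% interval -3.07 to -0.127), named after their values were seen. At day 9 the mCherry row averaged 1292 RPM with Dox, 10340 RPM with BMSDox and 6287 RPM with SerumMinusWINDox. The responses were thus not compared at like transgene levels, and the part of these levels was not tested.

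The H18 cultures reached high levels of the 9 genes without the transgene. Rad51ap2 had 276 and 136 RPM with B2RA at day 9, against 0 RPM in both B2RA libraries of day 3.5, and was at least 252-fold higher on a floor of 3 reads over the earlier group. Prdm9 had 182 and 124 RPM at day 9, against 1.304 and 0 RPM at day 3.5. Meiob had 207 and 168 RPM at day 9, against 2.61 and 0.449 RPM at day 3.5. Mei1 and Spata22, with no read at day 3.5, were at least 59.5-fold and 26.1-fold higher at day 9. Tex15, already at 24.1 and 23.8 RPM at day 3.5, had 1465 and 1231 RPM at day 9, a change of 5.75 (SE 0.367, limma adjusted p = 1.1e-26). In all, 9 of 9 were called higher at day 9 than at day 3.5, against 29.8% of all genes tested, and 8 of them passed the filter through day 9 alone. The median change was 5.58, or 5.75 with the 3 genes at 0 set at their bound (a fitted change from 0 depends on the pseudocount), beside 0.28 over all genes tested. Effects of B2RA and of days in culture cannot be told apart here, because H18 had no untreated control after day 4.

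BMP2 without RA gave a pair of H18 libraries at day 9 that stood apart from each other. Prdm9 had 71.7 RPM in replicate 1 and 4.73 in replicate 2, Mei1 55.8 and 6.83, and Tex15 546.5 and 105. Mei4 was alike in both, at 12.5 and 17.1 RPM. With B2RA, 6 of the 9 genes were called higher than with BMP2 at day 9, against 9.05% of all genes tested, and all 9 passed the filter, none through one side alone. Rad51ap2 rose by 3.30 (SE 0.475, limma adjusted p = 3.8e-08), Prdm9 by 2.89 (adjusted p = 8.1e-05), Tex15 by 2.48 (adjusted p = 7.8e-08), Meiob by 2.22 (adjusted p = 0.0039), Spata22 by 1.49 (adjusted p = 0.0061) and Dmc1 by 1.28 (adjusted p = 0.027). Spo11 had 71.3 and 92.1 RPM with B2RA, against 73.1 and 13.7 RPM with BMP2, and Mei1 41.4 and 52.8 RPM, against 55.8 and 6.83 RPM, so that both overlapped and did not pass the test. Mei4, with 27.7 and 34.0 RPM with B2RA, against 12.5 and 17.1 RPM with BMP2, did not overlap and did not pass either (1.02, adjusted p = 0.14). Without BMP2 replicate 2, only Rad51ap2 and Tex15 stayed called, Dmc1 was also lost without either B2RA library (adjusted p-values of 0.16 and 0.06) and Spata22 without B2RA replicate 1 (0.057). Without BMP2 replicate 1, Spo11 and Mei1 were called as well, and when only the groups compared were fitted the count was 0.

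Stra8 averaged 731 RPM in H18 with B2RA and 159 RPM with BMP2 (2.19, limma adjusted p = 0.014). Between BMP2 at day 9 and BMP2 at day 3.5, 4 of the 5 genes that passed the filter were called higher (Spo11, Dmc1, Meiob and Tex15), against 15.0% of all genes tested, and 4 of the 5 passed through day 9 alone. Spo11 was lost without BMP2 day 9 replicate 1 (1.64, adjusted p = 0.11). Prdm9, Mei1, Rad51ap2 and Spata22 reached 10 RPM in only 1 of these libraries and were not tested. Between H18 with B2RA, BMP2 or RA and the untreated control, only 1 of the 9 genes passed the filter at day 3.5 and 2 at day 4, and none of these was called, where 0%, 0.0119% and 0% of all genes tested were called at day 3.5 with B2RA, BMP2 and RA, and 6.26%, 1.56% and 2.13% at day 4. Tex15 with BMP2 at day 4 was called when only the groups compared were fitted (1.05, limma adjusted p = 0.029). The B2RA group of day 4 held 1 library, assumed in that fit to vary like the others. The H18 controls of day 4 were made under another extraction protocol than the treated libraries of that day, so protocol and treatment cannot be told apart there.

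In the Zglp1 knockout clones all 9 genes were lower than in H18, in libraries that also had more reads of pluripotent cell markers and fewer of later germ cell markers, as given above. With B2RA at day 9, Prdm9 had 1.05 and 0 RPM in Zko_E5 and 3.62 and 5.05 RPM in Zko_G10, against 182 and 124 RPM in H18. Rad51ap2 had 0 RPM in 3 of the 4 knockout libraries and 0.673 RPM in the fourth, against 276 and 136 RPM in H18. Mei1 had 0.527 and 0 RPM in Zko_E5 and 1.21 and 0 RPM in Zko_G10, against 41.4 and 52.8 RPM in H18. Tex15 had 27.1 and 20.3 RPM in Zko_E5 and 29.6 and 24.6 RPM in Zko_G10, against 1465 and 1231 RPM in H18. No knockout library reached the level of an H18 library for any of the 9 genes, though the share of all genes without such overlap was not counted. All 9 were called lower, against 21% of all genes tested, and 6 passed the filter through H18 alone. The changes ran between -3.06 for Dmc1 (SE 0.390, limma adjusted p = 7e-11) and -7.42 for Rad51ap2 (SE 0.412, adjusted p = 9.2e-31), with a median of -5.14 beside -0.09 over all genes tested. Both clones moved the same way for every gene, as for Mei4 (-3.91 in Zko_E5 and -2.60 in Zko_G10) and Prdm9 (-6.72 and -4.84). Replicate 2 of Zko_E5, which had 0 RPM for Prdm9 and Mei1, held 985914 reads, so that 1 read was worth 1.01 RPM. It had 11850 genes detected, the fewest of all libraries, and its part in the Zko_E5 values was not tested.

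Within the Zglp1 knockout clones, B2RA was not followed by a called change of the 9 genes. Only Dmc1 and Tex15 passed the filter, and 0 were called, where 11.0% of all genes tested were called, with an unadjusted p under 0.05 for 1 with limma and 0 called by edgeR. That gene was Tex15, which had 27.1, 20.3, 29.6 and 24.6 RPM with B2RA, against 21.5, 21.05, 12.9 and 10.65 RPM in the untreated clones (0.64, 95% interval 0.123 to 1.15, limma adjusted p = 0.058). Stra8 rose in the same libraries, averaging 351 RPM with B2RA and 19.8 RPM untreated (4.36, limma adjusted p = 9.4e-12). With BMP2 in these clones 0 of 3 genes tested were called, where 1.46% of all genes tested were called, with an unadjusted p under 0.05 for 1 (Tex15, -0.54, adjusted p = 0.36) and 0 by edgeR. Against H18 with BMP2, the knockout clones with BMP2 had 5 of the 5 tested genes called lower (Spo11, Mei4, Dmc1, Meiob and Tex15), against 9.56% of all genes tested, 2 of the 5 having passed through H18 alone. Dmc1 (adjusted p = 0.091) and Meiob (0.4) were lost without H18 BMP2 replicate 1. Rad51ap2 and Spata22 had no read in any of the 4 BMP2 libraries of the knockouts, against 61.6 and 5.25 RPM and 14.55 and 2.89 RPM in H18. On a floor of 3 reads over the knockout libraries they were at least 100-fold and 26.8-fold lower than in H18, but only at least 17.6-fold and 9.7-fold lower without H18 BMP2 replicate 1.

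In the Stra8 knockout clones, the distance from H18 ran between none that passed the test (Mei1) and the low levels of the Zglp1 knockout clones (1 library of Rad51ap2), though a difference between genes was not tested. With B2RA at day 9, Rad51ap2 had 7.07 and 6.99 RPM in Sko_B6 and 0 and 2.21 RPM in Sko_F6, against 276 and 136 RPM in H18. Prdm9 had 20.4 and 15.3 RPM in Sko_B6 and 4.39 and 6.255 RPM in Sko_F6, against 182 and 124 RPM in H18. These genes were far below H18 in every library, Rad51ap2 by 5.69 (SE 0.412, limma adjusted p = 5.7e-22) and Prdm9 by 3.81 (SE 0.509, adjusted p = 1.2e-09) on the log2 scale. Mei1 had 39.65 and 50.65 RPM in Sko_B6 and 21.2 and 22.8 RPM in Sko_F6, against 41.4 and 52.8 RPM in H18. The Sko_B6 libraries of Mei1 lay within or next to the H18 range and the Sko_F6 libraries below it, and the gene did not pass the test (-0.56, 95% interval -1.37 to 0.261, adjusted p = 0.27). Spata22 had 7.07 and 7.42 RPM in Sko_B6 and 11.4 and 12.5 RPM in Sko_F6, against 22.5 and 19.4 RPM in H18, a change of -1.08 (limma adjusted p = 0.013).

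In all, 8 of the 9 genes were called lower in the Stra8 knockout clones than in H18, against 13.5% of all genes tested, and 2 passed the filter through H18 alone. The other called genes were Meiob (-2.80), Tex15 (-2.48), Mei4 (-2.04), Dmc1 (-1.51) and Spo11 (-1.24, limma adjusted p = 0.05 as rounded). The Spo11 call ended with a pseudocount of 0.5 (0.098), no filter (0.068) or edgeR (0.058), and without H18 replicate 1 (0.11) or 2 (0.24), Sko_B6 replicate 1 (0.073) or 2 (0.082) or Sko_F6 replicate 2 (0.14). The Spata22 call ended with a pseudocount of 0.5 (0.06), with a pseudocount of 5 (a change of -0.85, under the size asked for), with edgeR (0.077) and without H18 replicate 1 (0.11). By clone, the difference from H18 was -4.60 in Sko_B6 and -6.77 in Sko_F6 for Rad51ap2, -3.02 and -4.59 for Prdm9, and -0.06 and -1.05 for Mei1. Stra8 reads of the deleted gene differed between the same clones, at 555 RPM in Sko_B6 and 59.9 RPM in Sko_F6 with B2RA, and its part was not tested.

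**Figure D2:**
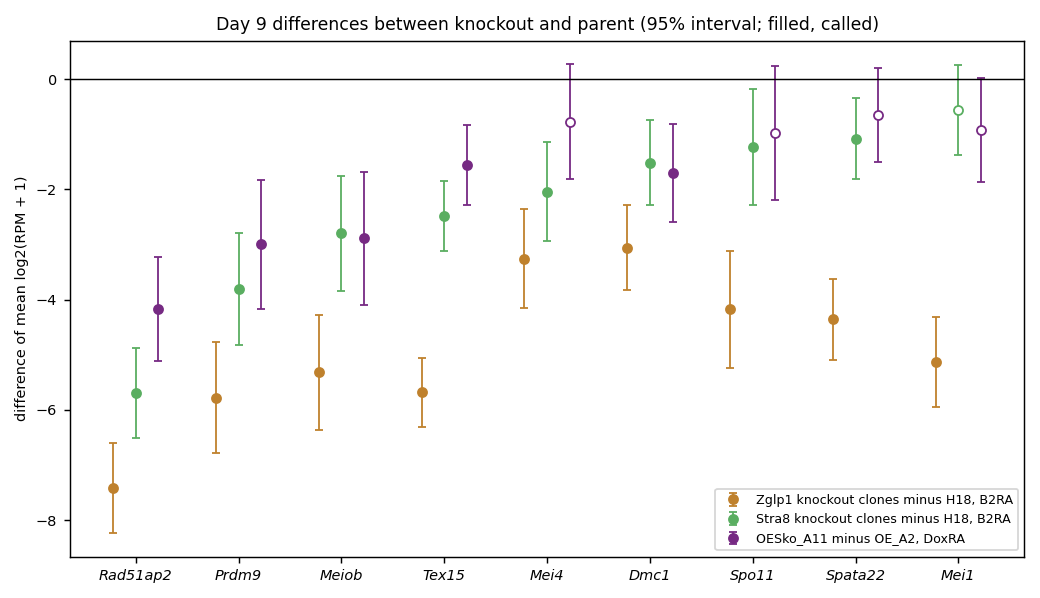
Differences between knockout and parent at day 9 in mean log2(RPM + 1), with 95% intervals, for Zglp1 knockout clones against H18 and Stra8 knockout clones against H18 with B2RA, and for OESko_A11 against OE_A2 with DoxRA. Filled points were called; Rad51ap2 lies lowest in each comparison (-7.42, -5.69 and -4.16), and Mei1 was called in the Zglp1 knockout clones (-5.14) and not in the other comparisons.

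In the Stra8 knockout clones themselves, B2RA was followed by called rises at day 9. Tex15 had 245, 275, 206 and 236 RPM with B2RA, against 10.3, 12.7, 13.5 and 17.0 RPM in untreated clones. Mei1 had 39.65, 50.65, 21.2 and 22.8 RPM with B2RA, against 0, 1.19, 0.356 and 0 RPM untreated. Spo11 had 35.7, 34.5, 43.9 and 23.9 RPM with B2RA, against 4.95, 0.398, 3.56 and 4.26 RPM untreated. The B2RA libraries lay above all untreated ones for 8 of the 9 genes, and Rad51ap2 overlapped at 0 RPM in 1 B2RA library. How large a share of all genes lay apart in this way was not counted. Of the 7 genes that passed the filter, 4 of them through B2RA alone, 7 were called higher, against 15.7% of all genes tested, with changes between 1.66 for Dmc1 (limma adjusted p = 8.7e-06) and 4.63 for Mei1 (adjusted p = 1.1e-22). Spata22 and Rad51ap2, with no read in the untreated clones, were at least 34.9-fold and 14-fold higher, and Rad51ap2 and Mei4 did not pass the filter. The median change of all 9 genes was 2.58, or 3.21 with those at 0 set at their bound, beside 0.23 over all genes tested.

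The difference between these responses was tested directly. The B2RA response of the Stra8 knockout clones exceeded that of the Zglp1 knockout clones for 7 of the 7 genes tested, against 6.33% of all genes tested. Of these 7, 4 passed the filter through the B2RA libraries alone, so the count is a description. The difference was 4.19 (SE 0.476, limma adjusted p = 3.9e-11) for Mei1, 3.44 (SE 0.367, adjusted p = 5.5e-12) for Tex15 and 3.27 (adjusted p = 9.2e-09) for Spata22, and between 1.46 and 2.42 for Dmc1, Spo11, Prdm9 and Meiob. With edgeR on whole reads only Tex15 was called, beside 297 of all genes in either direction, and with only the groups compared 4 genes were. Leaving out 1 library ended the calls of Dmc1 (Zko_E5 B2RA replicate 2, Zko_G10 control replicate 2, Sko_B6 control replicate 1 or Sko_F6 control replicate 1; adjusted p-values of 0.068 to 0.14), Spo11 (Sko_B6 control replicate 2, 0.085) and Meiob (Zko_E5 B2RA replicate 2, 0.12). With B2RA alone, the Stra8 knockout clones stood above the Zglp1 knockout clones for 7 of 7 genes tested, against 8.29% of all genes tested, with 4 of them tested through the Stra8 knockouts alone. The libraries of Prdm9 overlapped there (20.4, 15.3, 4.39 and 6.255 RPM in Stra8 knockouts, against 1.05, 0, 3.62 and 5.05 RPM in Zglp1 knockouts).

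The transgene in the Stra8 knockout background gave OESko_A11, where DoxRA at day 9 was followed by rises of all 7 genes that passed the filter, 3 of them through DoxRA alone, against 13.5% of all genes tested. Tex15 had 600.0 and 365 RPM with DoxRA, against 18.1 and 19.2 RPM untreated. Spata22 had 26.7 and 30.5 RPM with DoxRA, against 0.861 and 0 RPM untreated. Prdm9 had 34.3 and 39.2 RPM with DoxRA, against 1.72 and 0 RPM untreated. Rad51ap2 (15.2 and 7.26 RPM with DoxRA, against 0 and 0.549 RPM untreated) and Mei4 (10.95 and 9.20 RPM, against 2.15 and 2.75 RPM) had 1 library each at 10 RPM and were not tested, though neither overlapped. The Spo11 call (2.101, limma adjusted p = 0.0053) ended without control replicate 1 (0.06).

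Set against OE_A2 with DoxRA at day 9, OESko_A11 with DoxRA was lower for 5 of the 9 genes, where 11.5% of all genes tested were called lower, and all 9 passed the filter, none through one side alone. These were Rad51ap2 (-4.16, SE 0.475, limma adjusted p = 1.7e-12), Prdm9 (-3.00, adjusted p = 1.3e-05), Meiob (-2.89, adjusted p = 4.7e-05), Dmc1 (-1.70, adjusted p = 0.0012) and Tex15 (-1.56, adjusted p = 0.00027). Spata22 (-0.65, 95% interval -1.50 to 0.201), Mei4 (-0.77, 95% interval -1.81 to 0.270), Mei1 (-0.92, 95% interval -1.86 to 0.026) and Spo11 (-0.98, 95% interval -2.19 to 0.237) did not pass. The libraries of OESko_A11 lay below those of OE_A2 for all 9 genes, but the share of all genes lying apart was not counted. The mCherry row averaged 4841 RPM in OESko_A11 and 3165 RPM in OE_A2 in these libraries. Across the 9 genes, the differences of OESko_A11 from OE_A2 with DoxRA and of the Stra8 knockout clones from H18 with B2RA, which share no library, had a Pearson r of 0.92 and a Spearman rho of 0.83, a description over 9 genes that are not independent replicates.

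The DoxRA response itself was smaller in OESko_A11 than in OE_A2 for 4 of the 9 genes, where 5.24% of all genes tested were called lower in that test, and 5 of the 9 passed the filter through the DoxRA libraries alone. These were Meiob (-2.73, SE 0.861, limma adjusted p = 0.014), Spo11 (-2.52, SE 0.867, adjusted p = 0.025), Dmc1 (-2.29, SE 0.638, adjusted p = 0.0051) and Rad51ap2 (-2.23, SE 0.672, adjusted p = 0.01). The Rad51ap2 value, for a gene near 0 in the controls, depended on the scale: it was -1.68 with a pseudocount of 0.5 (limma adjusted p = 0.17) and -0.52 with edgeR (adjusted p = 0.96). For Prdm9 the difference was -1.31 (95% interval -2.96 to 0.338), and for Tex15 it was -0.07 (95% interval -1.09 to 0.962). Untreated Tex15 was at 18.1 and 19.2 RPM in OESko_A11, against 57.5 and 51.0 RPM in OE_A2. Untreated Spo11 went the other way, averaging 12.3 RPM (SD 2.79) in OESko_A11 and 4.46 RPM (SD 4.36) in OE_A2. The Spo11 value thus holds this untreated difference too, and with DoxRA alone the clones differed by -0.98, which was not called. With edgeR on whole reads 2 of the 9 genes were called, beside 1546 of all genes in either direction. With limma only Dmc1 stayed called without OE_A2 control replicate 1, OE_A2 DoxRA replicate 2, OESko_A11 control replicate 2 or OESko_A11 DoxRA replicate 2. Spo11 was also lost without OESko_A11 DoxRA replicate 1 (limma adjusted p = 0.057).

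OE_A2 with DoxRA and H18 with B2RA differed at day 9 in 1 called gene. One or the other had the highest mean of that day for 8 of the 9 genes, Mei1 being highest with SerumMinusWINDox (55.6 RPM), and 3 other groups had higher means than H18 with B2RA for Prdm9, Dmc1 and Spata22. Dmc1 alone was called higher in OE_A2 with DoxRA (370.3 and 333 RPM, against 147.5 and 119 RPM in H18 with B2RA), by 1.40 (SE 0.451, limma adjusted p = 0.018), where 1.46% of all genes tested were called higher. This call ended without H18 B2RA replicate 2 (adjusted p = 0.16) or OE_A2 DoxRA replicate 1 (0.092) or 2 (0.057), and the count was 2 with a pseudocount of 5, with no filter or with TMM factors. Tex15 (0.04, 95% interval -0.690 to 0.763) and Rad51ap2 (0.09, 95% interval -0.853 to 1.03) had nearly equal means, and Mei4 (14.7 and 21.5 RPM with DoxRA, against 27.7 and 34.0 RPM with B2RA) lay lower without passing the test (-0.75, adjusted p = 0.35). In the untreated OE_A2 control, Tex15 rose between day 4 and day 9, with 57.5 and 51.0 RPM at day 9, against 20.55 and 21.5 RPM at day 4 (1.33, limma adjusted p = 0.0075), 1 of the 2 genes tested, beside 7.35% of all genes tested that were called higher. That call ended without day 9 replicate 1 (0.069) or day 4 replicate 2 (0.058).

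**Figure D3:**
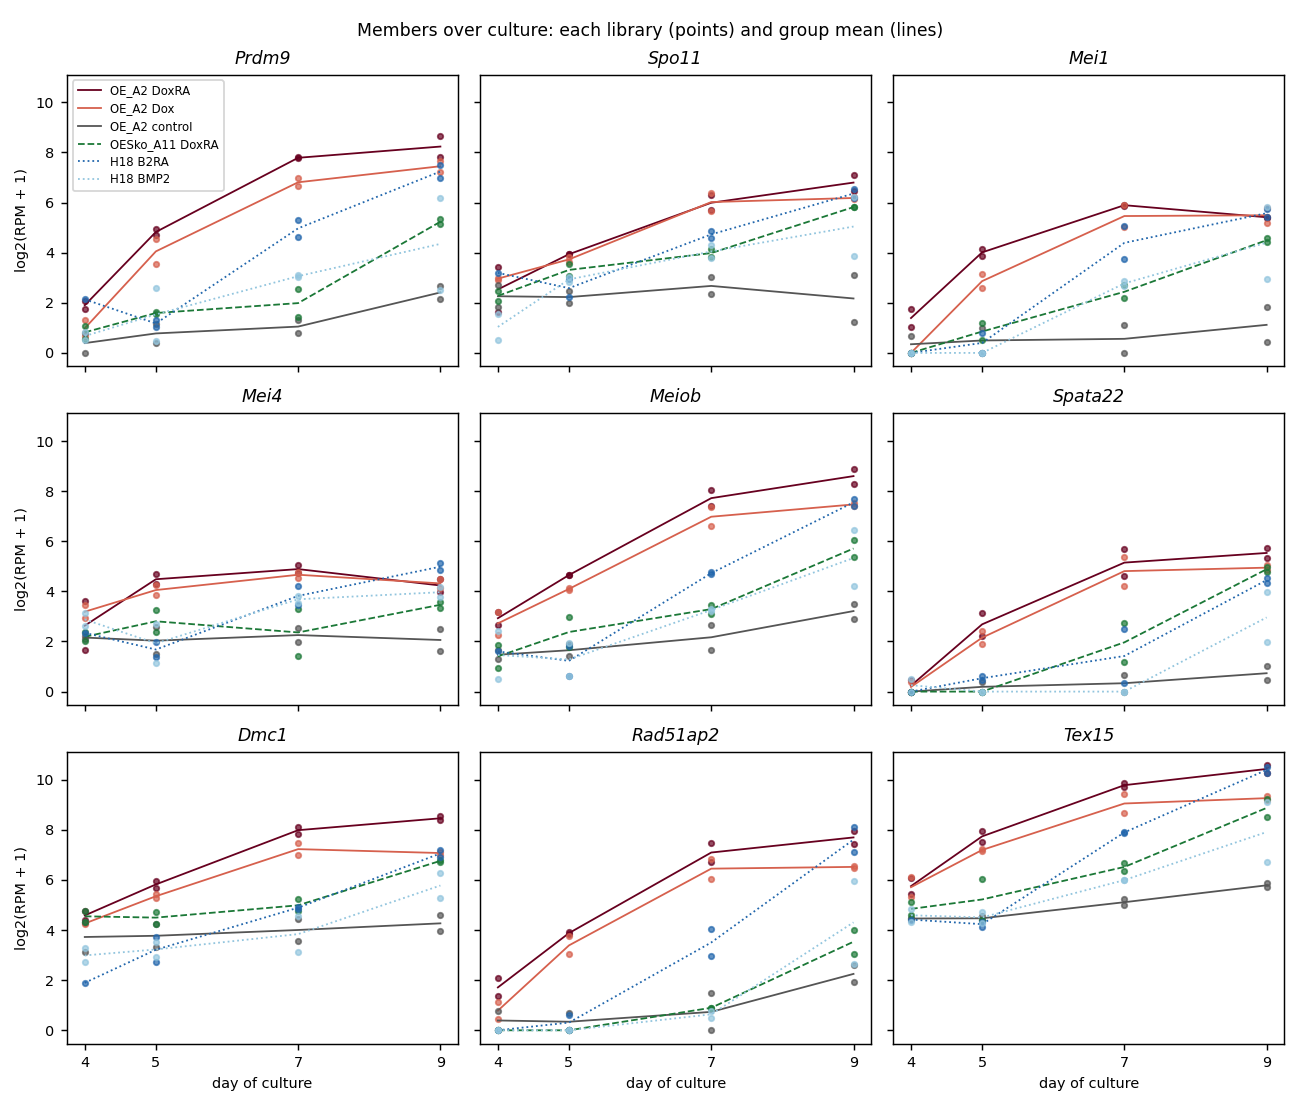
Levels of the 9 genes at days 4, 5, 7 and 9 of culture, on a log2(RPM + 1) axis, with points for libraries and lines through group means. OE_A2 with DoxRA or Dox climbs from day 5, H18 with B2RA from day 7, and OESko_A11 with DoxRA mostly between days 7 and 9, as for Tex15 (101 and 81.2 RPM at day 7 and 600.0 and 365 RPM at day 9).

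More of the 9 genes were called at day 5 than at day 4 of culture with Dox, and all by day 7. The timing of one gene against another was not tested, and the filter decides in part which genes are called at the early days. At day 4, Tex15 alone was called, with 38.9 and 67.8 RPM with Dox, against 20.55 and 21.5 RPM in the control (1.25, limma adjusted p = 0.012, 6.01% of all genes tested called higher), and with 42.6 and 65.7 RPM with DoxRA (1.29, adjusted p = 0.0064, 9.04% of all genes tested). Only 2 genes passed the filter in each of these comparisons, and with no filter Rad51ap2 was called with DoxRA as well (1.32, adjusted p = 0.036). At day 5 with Dox, 5 of the 6 genes tested were called (Prdm9, Mei4, Dmc1, Meiob and Tex15), against 6.85% of all genes tested. At day 5 with DoxRA it was 8 of 8, against 16.3% of all genes tested, and Spata22, at 7.78 and 3.705 RPM, did not pass the filter. With no filter, Mei1 (2.37, limma adjusted p = 0.00014), Rad51ap2 (3.05, adjusted p = 9.1e-07) and Spata22 (1.96, adjusted p = 0.00031) were called with Dox at day 5 too, and Spata22 with DoxRA (2.49, adjusted p = 7.6e-07). By day 7, 9 of 9 were called with Dox (13.5% of all genes tested) and with DoxRA (20.5% of all genes tested). At day 5, 4 of the 6 genes tested with Dox passed the filter through one side alone, and 6 of the 8 with DoxRA. At day 7, 7 of the 9 passed through the treated libraries alone, both with Dox and with DoxRA. Such genes could pass only if they differed, so these counts are a description. Mei1 had 59.6 and 57.5 RPM with DoxRA at day 7, above its day 9 levels of 41.0 and 42.25 RPM, and Mei4 had 32.1 and 25.5 RPM at day 7, against 14.7 and 21.5 RPM at day 9. Neither of these differences between days was tested. Between DoxRA and Dox 0 of 2 genes tested were called at day 4, 0 of 8 at day 5 and 0 of 9 at day 7, where 0.238%, 0.802% and 2.18% of all genes tested were called. All OE_A2 Dox and DoxRA libraries of days 4 and 5, and 3 of those used at day 7, were made under another extraction protocol than the controls of the same days. The protocol and the treatment therefore cannot be told apart at days 4 and 5, nor for Dox at day 7. For DoxRA at day 7 only replicate 2 shared the protocol of the controls, and a comparison within that protocol was not run.

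With SerumMinusWINDox, 0 of 2 genes tested were called at day 4 (3.72% of all genes tested), 1 of 2 at day 5 (Tex15, 1.35, limma adjusted p = 0.011, 3.94% of all genes tested) and 9 of 9 at day 7 (13.9% of all genes tested). Of the 9 genes tested at day 7, 7 passed the filter through SerumMinusWINDox alone, so that count is a description. With no filter, Prdm9 was called at day 4 (2.41, adjusted p = 0.0081), and Prdm9, Mei1, Rad51ap2 and Meiob were called at day 5. With BMSDox, 0 of 2 were called at day 4 (9.32% of all genes tested), 1 of 2 at day 5 (Tex15, 1.95, limma adjusted p = 5.7e-05, 7.39% of all genes tested) and 7 of 7 at day 7 (11.6% of all genes tested), and with no filter Prdm9, Rad51ap2 and Meiob at day 5 and Mei4 and Spata22 at day 7 as well. In H18, 0 of 1 and 0 of 2 genes tested were called between B2RA and BMP2 at days 4 and 5 (3.46% and 0.218% of all genes tested) and 3 of 7 at day 7, namely Prdm9, Mei1 and Tex15 (2.73% of all genes tested). Of the 7 genes tested with BMSDox at day 7, 5 passed the filter through BMSDox alone. In the H18 comparison of day 7, 3 of the 7 passed through one side alone. Both counts are a description. Tex15 then had 239 and 235.5 RPM with B2RA, against 62.6 and 62.9 RPM with BMP2. Against H18 with B2RA at day 7, 5 of 6 genes tested were lower in the Zglp1 knockout clones (10.2% of all genes tested) and 5 of 6 in the Stra8 knockout clones (6.95% of all genes tested), in each case Prdm9, Spo11, Mei1, Meiob and Tex15. Of the 6 genes tested, 4 passed the filter through one side alone for the Zglp1 knockout clones and 2 for the Stra8 knockout clones. These counts are a description as well. With no filter, the count at day 7 was 5 for B2RA against BMP2 in H18 and 7 for either knockout against H18. The share of all genes called with no filter was not counted. At days 4 and 5, with 1 or 2 genes tested, 0 were called in the Zglp1 knockout clones (3.32% and 0.953% of all genes tested) and 0 in the Stra8 knockout clones (1.60% and 0.0457% of all genes tested). Mei1 at day 7 was thus below H18 in the Stra8 knockout clones (1.35, 1.14, 1.45 and 0.648 RPM, against 12.3 and 32.2 RPM), by 3.31 on the log2 scale (limma adjusted p = 1.4e-09). Within the Stra8 knockout clones, B2RA at day 7 was followed by rises of Dmc1 and Tex15, the 2 genes tested (6.00% of all genes tested; 5 genes were called with no filter), and of 0 genes at days 4 and 5, with 1 and 2 tested (0.185% and 0.488% of all genes tested). Within the Zglp1 knockout clones 0 of 3, 2 and 2 genes tested were called at days 4, 5 and 7 (0.496%, 1.01% and 5.12% of all genes tested).

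OESko_A11 with DoxRA was also below OE_A2 with DoxRA at earlier days. At day 4, 0 of 2 genes tested were called (8.12% of all genes tested), and with no filter Mei1 and Rad51ap2 were lower. At day 5, 7 of 8 genes tested were lower in OESko_A11 (14.3% of all genes tested), and at day 7 it was 9 of 9 (15.6% of all genes tested), against 5 of 9 at day 9. At each of days 5 and 7, 5 of the genes passed the filter through OE_A2 alone. All OE_A2 DoxRA libraries of days 4 and 5, and replicate 1 of day 7, were made under another extraction protocol than those of OESko_A11, so protocol and clone cannot be told apart at days 4 and 5. At day 7 only replicate 2 of OE_A2 shared the protocol of OESko_A11, and a comparison within that protocol was not run. Rad51ap2 at day 7 had 0.877 and 0.850 RPM in OESko_A11, against 176 and 104 RPM in OE_A2 (-6.20, limma adjusted p = 6.1e-21). Spata22 at day 7 had 5.7 and 1.275 RPM in OESko_A11, against 50.8 and 23.25 RPM in OE_A2 (-3.18, adjusted p = 8.3e-10), and at day 9 26.7 and 30.5 RPM, against 39.0 and 52.6 RPM. Whether the difference between the clones changed between the days was not tested. The mCherry row differed too, at 500 RPM on average in OESko_A11 and 2001 RPM in OE_A2 at day 5, and at 1321 RPM in OESko_A11 and 3388 RPM in OE_A2 at day 7, and its part was not tested. Against its own control, OESko_A11 with DoxRA had 0 of 2 genes tested called at days 4 and 5 (1.12% and 9.49% of all genes tested) and, of 3 tested, Tex15 alone at day 7 (1.87, limma adjusted p = 0.0002, 4.39% of all genes tested), with Mei1 and Spata22 added when no filter was used.

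Germ cells from embryos gave 1 library per stage and no test, and intervals here are exact Poisson intervals at 95% that cover counting error only. In E9.5 primordial germ cells Prdm9, Rad51ap2 and Spata22 had no read, for which the upper limit is 0.717 RPM on a floor of 3 reads and 0.882 RPM as the end of the interval, and Tex15 stood at 10.04 RPM (95% interval 7.24 to 13.6). In oocytes, Prdm9 had 309 RPM at E14.5 and 375 RPM at E15.5, Rad51ap2 192 and 227 RPM, and Tex15 1395 and 1483 RPM. Spo11 had 182 and 165 RPM, Mei1 115 and 165 RPM, Dmc1 366 and 276 RPM, Meiob 255 and 271 RPM, Spata22 45.8 and 42.9 RPM and Mei4 30 and 23.9 RPM. The intervals of the 2 stages did not overlap for Prdm9 (290 to 328 and 353 to 399 RPM), Mei1 (104 to 128 and 151 to 181 RPM) or Dmc1 (345 to 387 and 256 to 296 RPM). Set beside the E14.5 oocytes, the cultured cells of day 9 had like levels of some genes. Tex15 averaged 1385 ± 204 RPM with DoxRA and 1348 ± 166 RPM with B2RA, and Rad51ap2 209 ± 49.9 and 206 ± 98.6 RPM (SD, n = 2 each). Mei1 was lower in culture, at 41.6 ± 0.874 RPM with DoxRA and 47.1 ± 8.06 RPM with B2RA, and so was Spo11, at 113 ± 35.2 and 81.7 ± 14.7 RPM. H18 with B2RA was also below these oocytes for Prdm9 (153 ± 41.2 RPM), Dmc1 (133 ± 20.4 RPM), Meiob (187 ± 27.8 RPM) and Spata22 (20.9 ± 2.20 RPM). The animals' strain and the extraction differ from the cultures, so these levels are set side by side only.

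**Figure D4:**
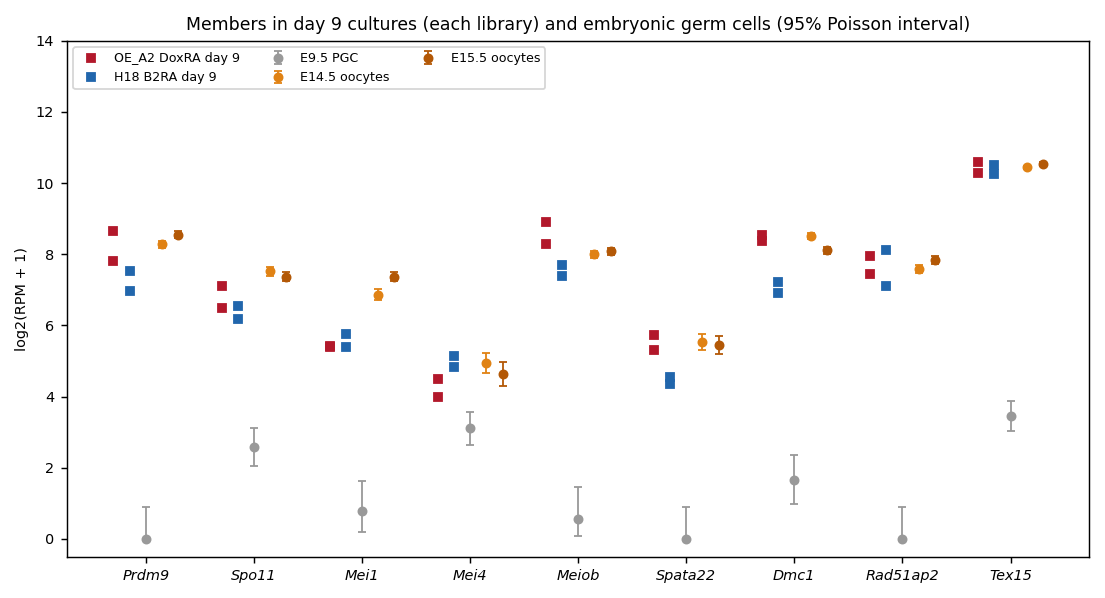
Levels of the 9 genes in each library of OE_A2 with DoxRA and H18 with B2RA at day 9 (squares) and in 1 library each of E9.5 primordial germ cells and E14.5 and E15.5 oocytes (circles with 95% Poisson intervals), on a log2(RPM + 1) axis. The E9.5 cells lie lowest for every gene, and Mei1 in oocytes (115 and 165 RPM) lies above all 4 cultured libraries.

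Partners of the 9 genes in break formation were read from a list of 15, of which 13 were in the table (Rec114 and Ankrd31 were not analysed here) and passed the filter at day 9. With DoxRA 10 of the 13 were called higher (25.6% of all genes tested) and with Dox 7 (13.4% of all genes tested), and none was lower. Top6bl, which pairs with SPO11 in the cutting enzyme, had 23.95 ± 4.46 RPM with DoxRA and 13.1 ± 3.95 RPM with Dox, against 0.359 ± 0.508 RPM in the control (SD, n = 2 each), and Ccdc36 (also called Iho1), which binds the chromosome axis and MEI4 complexes, had 106 ± 15.8 and 56.7 ± 8.56 RPM, against 9.53 ± 2.28 RPM. Zcwpw1, a reader of the marks PRDM9 writes, had 954 ± 339 RPM with DoxRA and 472 ± 34.0 RPM with Dox, against 54.7 ± 26.8 RPM in the control. With B2RA, 10 of these 13 were lower in the Zglp1 knockout clones than in H18 (21% of all genes tested) and 9 in the Stra8 knockout clones (13.5% of all genes tested). The list's median change was 1.87 with DoxRA and 1.00 with Dox.

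A list of 22 strand exchange partners, of which 20 were in the table (Rad51b and Rad51d were not analysed here), was read the same way. With DoxRA 6 of the 20 were higher and 2 lower, where 25.6% of all genes tested were higher and 22.5% lower, so that the higher share was near that of all genes. With Dox 5 of the 20 were higher and 1 lower (Xrcc3, also lower with DoxRA), where 13.4% of all genes tested were higher and 9.38% lower. Brca2, a gene of DNA repair by recombination, had 406.5 ± 77.8 RPM with DoxRA and 182 ± 12.8 RPM with Dox, against 58.6 ± 8.66 RPM in the control. Hsf2bp and 4930432K21Rik (also called Brme1), whose products bind BRCA2 in meiosis, rose with Dox by 1.34 and 1.96 on the log2 scale. Mnd1, whose product helps DMC1 pair strands, was lower with DoxRA (54.6 ± 13.0 RPM, against 124.7 ± 25.4 RPM in the control, a change of -1.18). The medians of this list were 0.80 with DoxRA and 0.49 with Dox, beside 0.11 and 0.06 over all genes tested. With B2RA, 5 of the 20 were lower and 2 higher in the Zglp1 knockout clones than in H18, where 21% of all genes tested were lower. In the Stra8 knockout clones 1 (Brca2) was lower and 2 (Rpa1 and Rpa2) higher, where 13.5% of all genes tested were lower. The shares of all genes called higher in these comparisons were not counted.

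Over the 98 PGCLC groups, the mean log2(RPM + 1) values of the 9 genes moved together. The 36 pairs had Pearson correlations of 0.523 to 0.958 with a median of 0.893, a description of groups that share lines, days, treatments and depth. The highest was between Prdm9 and Rad51ap2 (0.958) and the lowest between Mei4 and Dmc1 (0.523), and pairs with Mei4 reached at most 0.672. Among 10744 other genes with at least 10 RPM in a group, the one most like each member was Rad21l for Prdm9 (0.963) and Rad51ap2 (0.978), Rab22a for Spo11 (0.896), Lypd4 for Mei1 (0.980), Cenpq for Mei4 (0.824), Fgf11 for Meiob (0.942), Ccnb3 for Spata22 (0.977), Tmem129 for Dmc1 (0.946) and Zfp541 for Tex15 (0.968). The mean of the 9 genes was most like Tex16 (0.982), Lypd4 and Adad1 (0.979 each), Ccnb3 (0.975) and Rad21l (0.974).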

How the data were processed

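The authors deposited 1 table of RPM values for 3' mRNA ends amplified from 1 ng of RNA, scaled to reads on endogenous genes. The submitters' processing notes name cutadapt 1.9.1, TopHat2 2.1.0, Bowtie 1.1.2, SAMtools 1.3, HTSeq 0.9.1 and mm10. In the columns of lines with the transgene, the deposited numbers are called signal here, since transgene rows scaled like the rest lie outside that total. Of 195 value columns 194 were matched to labels and 1 was not used; 2 labelled samples were not analysed here. Titles gave the day where the H18 stage label differed.

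limma 3.58.1 (R 4.3.3; trend and robust variance) was fitted to log2(RPM + 1) of 191 PGCLC libraries in 98 groups, and p-values were adjusted (Benjamini-Hochberg) over all genes tested in a comparison. Genes needed 10 RPM in 2 of the libraries compared; calls needed an adjusted p under 0.05 and a log2 change of 1. For edgeR 4.0.16, whole reads were recovered from RPM steps (100% of values whole within 0.05 reads). Scripts were tested on simulated data. Reads carry no molecular identifiers, so intervals and floors of 3 reads cover counting error only. Replicate numbers were not shown to pair libraries. Members, gene lists and tests were chosen with earlier results of these data known. The genes named as most alike were those with the highest correlation over the group means.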

Additional observations from a re-analysis of the deposited data

Results flagged for a closer look

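A test of the difference between 2 responses passed for 11 values at day 9. The DoxRA response in OESko_A11 minus that in OE_A2 was -2.52 for Spo11, -2.29 for Dmc1, -2.23 for Rad51ap2 and -2.73 for Meiob on the log2 scale, each a smaller rise in the clone that lacks Stra8; for Rad51ap2 the value was -0.52 with edgeR (adjusted p = 0.96). The B2RA response in the Stra8 knockout clones minus that in the Zglp1 knockout clones was 2.35 for Prdm9, 2.20 for Spo11, 4.19 for Mei1, 1.46 for Dmc1, 2.42 for Meiob, 3.27 for Spata22 and 3.44 for Tex15, each a larger rise in the clones that lack Stra8. With edgeR, 2 of the genes were called in the first test and only Tex15 in the second. Leaving out 1 library ended some of the limma calls in both tests, as given above. OESko_A11 and OE_A2 are 1 clone each, so clone and genotype cannot be told apart in the first test.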

How the results depend on the processing

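Of 206 calls of the 9 genes over 68 comparisons, 172 were kept under every alternative run, 34 were ended by at least 1 and 0 were reversed. Counts at day 9 moved as follows, and the cause was not tested. Except with edgeR, calls over all genes were not counted for the alternative settings. With a pseudocount of 5, 4 genes were called for DoxRA against Dox, 2 for OE_A2 DoxRA against H18 B2RA and 1 (lower) for the Dox response with BMS minus that in control medium. With no filter, more genes being tested, 1 gene (Rad51ap2) was called lower for BMS and for SerumMinusWIN against control. The count with no filter was 8 for BMP2 day 9 against day 3.5, 9 for the Zglp1 knockout clones against H18 with BMP2, 2 for OE_A2 DoxRA against H18 B2RA and 4 for control day 9 against day 4. TMM factors gave 2 for OE_A2 DoxRA against H18 B2RA. Fitting only the groups compared gave 4 for DoxRA against Dox, 0 for B2RA against BMP2 in H18 and 4 for the response of Stra8 minus that of Zglp1 knockout clones, where edgeR gave 1; edgeR gave 2 for OESko_A11 minus OE_A2. It ended 12 calls in all.

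Leaving out 1 library at a time gave 0 to 1 calls for DoxRA against Dox, 2 to 8 for B2RA against BMP2 in H18, 3 to 5 for the Zglp1 knockout clones against H18 with BMP2, 0 to 1 for OE_A2 DoxRA against H18 B2RA, 0 to 1 for control day 9 against day 4 and 1 to 4 for OESko_A11 minus OE_A2; the genes tested were held as in the full fit. Leave-one-out fits and edgeR were not run for days before day 9. With no filter, Dox against control at day 5 had 8 genes called in place of 5, SerumMinusWINDox 5 and BMSDox 4 in place of 1 each, and OESko_A11 against OE_A2 at day 4 had 2 in place of 0. With the replicate block, DoxRA against control still had 9 genes called; the block ended 0 calls and added 3, and same-numbered libraries had median correlations of 0.03 to 0.13 by line, so the numbers were not taken to pair libraries. Libraries of 877040 reads or more limit the test of genes near 1 read.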
